A study of Mus musculus with 119 samples.

Results

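The response of wild-type (WT) bone marrow-derived macrophages (BMDMs) to 0.5 h of LPS was read from 12 of the 119 RNA-seq libraries of the series. They were 6 libraries of unstimulated cells and 6 of cells given 100 ng/ml LPS for 0.5 h, taken by their labels, which number the replicates of both groups from 4 to 9. All 12 came from WT mice of the strain C57BL/6(NIMR), whose age is not in the sources used here. Marrow cells from the femur had been grown with L-cell conditioned medium, which supplies the growth factor M-CSF, and were then kept overnight in low serum, with or without LPS at the end. The other libraries of the series were of later times, of mutant mice, or of WT cells given inhibitors, and of these only Map3k8 D270A BMDMs, WT at 1 h, and WT at 2 h of LPS were set beside the comparison. Map3k8 encodes TPL-2, a kinase that activates the MKK1/2-ERK1/2 pathway, and in Map3k8 D270A cells it has lost that activity. The methods call the libraries biological replicates without saying which cultures or mice they came from. The p-values thus measure a spread between libraries that may be partly technical. That spread, and so each SE, was estimated over 62 libraries of WT cells without inhibitor, Map3k8 D270A cells, and Elk1-/-Elk4-/- cells. For a gene that varied more in these 12 libraries than in the others, such an SE can be too small.

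LPS, a component of the outer membrane of Gram-negative bacteria, binds to TLR4 together with the coreceptors CD14 and MD-2. The receptor then signals through the adaptors MyD88 and TRIF to the IKK complex, which frees NF-κB from its inhibitors, and to the MAPKs ERK, JNK, and p38. The first genes to respond need no new protein synthesis. They are known as immediate early or primary response genes and include transcription factors, cytokines, chemokines, and the inhibitors that later shut the signal down.

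The deposited values, 1 per gene and library, were taken as log2 values, and every fold given rests on that, since the sources used here do not state the log base. A log2 fold change is the mean of the 6 LPS libraries minus that of the 6 unstimulated libraries, given with its SE, and the adjusted p is from limma. Genes with an adjusted p under 0.05 and a rise or fall of 2-fold or more, which is 1 on the log2 scale, were called. After 0.5 h of LPS, 74 of 11884 genes tested were called and all of them rose, 0.623% of the genes tested. None was called as lowered, whereas 1326 genes were lower at an unadjusted p below 0.05. The largest fall that passed the adjusted p was that of Snhg20, at -0.84. Of the 74 genes, 30 rose by at least 2 and 14 by at least 3 on the log2 scale, and their median log2 fold change was 1.78. The middle 90% of all tested genes lay between -0.14 and 0.22. In 73 of the 74 genes the lowest LPS library lay above the highest unstimulated library, the exception being Bmp2. In all 74 each LPS library lay above the unstimulated library of the same number. The 74 were chosen by their rise in these same libraries, so this separation is not separate evidence. How many of all tested genes separate in this way is not given here.

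The 12 libraries were macrophage-like by their markers, and a group of them stood apart. The genes for the M-CSF receptor, for F4/80, and for lysozyme, Csf1r, Adgre1, and Lyz2, had mean unstimulated levels of 14.97, 15.18, and 18.09. Of the 10 macrophage markers, Cd14 was the only one to pass the adjusted p, and it rose by 0.70. None of the 7 neutrophil markers tested passed it, nor did any tested marker of B cells, T and NK cells, dendritic cells, mast cells and basophils, or fibroblasts, and no erythroid marker was abundant enough to test. Among them Mmp8 had a mean of 9.19 without and 9.14 with LPS, Cd4 of 8.11 and 8.04, and Cd79b of 5.96 and 5.83, whereas Cd3e and Ly6g lay at -1.72 and -0.23. The summed level of the neutrophil markers ran from 9.19 to 10.02 without LPS and from 9.13 to 10.00 with it. In such bulk samples, fewer cells of a type and less RNA per cell cannot be told apart. Replicates 7 to 9 responded more than replicates 4 to 6: the median log2 response of the 74 genes was 1.42, 1.32, and 1.45 in replicates 4, 5, and 6 and 2.27, 2.32, and 2.32 in replicates 7, 8, and 9. The response was larger in replicates 7 to 9 for 72 of the 74 genes. What these numbers stand for is not given in the labels. The response was over 1.5 times as large in replicates 7 to 9 for 29 of the 74 genes. Beside each named gene of that kind, and each that fell under the 2-fold threshold in replicates 4 to 6 alone, the values of both sets are given, those of replicates 4 to 6 first. Limma called 57 genes in replicates 4 to 6 alone and 100 in replicates 7 to 9 alone, and these held 57 and 74 of the 74 genes.

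**Figure D1:**
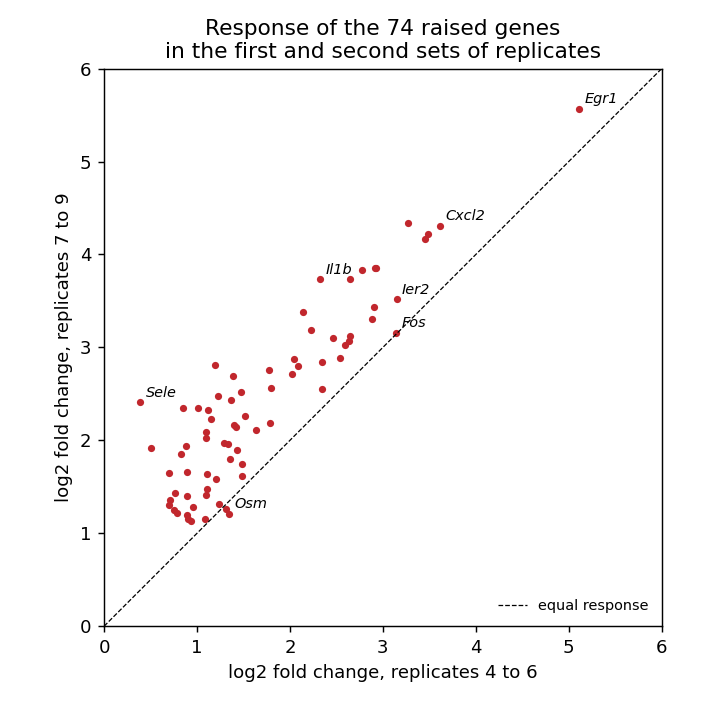
Log2 fold change of each of the 74 raised genes in replicates 4 to 6 (x axis) and replicates 7 to 9 (y axis), with a dashed line at equal response. Points lie above the line for 72 of the 74 genes, and Osm is 1 of the exceptions.

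The promoters of genes with the largest rises are shown next, to set the largest rises beside short motifs of factors such as NF-κB and AP-1, together with the TATA box. RefSeq promoter windows (GRCm38.p6) were found for 56 of the 74 raised genes and 9526 of the 11884 tested genes, and the 250 bases before the first-listed start site were searched on both strands. The windows below are those of the 6 genes with the largest rises that have an entry and can be printed (Cxcl2, Cxcl1, Tnf, Dusp2, Socs3, Nr4a1), with Nfkbia and Zfp36 added after their values were seen. They read 5′ to 3′ on the strand of the gene and end at the base before the start site, and capitals mark a match to any of the 6 motifs searched.
Cxcl2, chr5:90903649-90903898, plus strand: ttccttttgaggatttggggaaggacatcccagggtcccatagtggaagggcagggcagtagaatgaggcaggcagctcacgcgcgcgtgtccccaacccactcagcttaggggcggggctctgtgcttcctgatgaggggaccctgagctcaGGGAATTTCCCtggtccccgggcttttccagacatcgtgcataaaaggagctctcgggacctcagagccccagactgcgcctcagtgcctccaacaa
Cxcl1, chr5:90890995-90891244, plus strand: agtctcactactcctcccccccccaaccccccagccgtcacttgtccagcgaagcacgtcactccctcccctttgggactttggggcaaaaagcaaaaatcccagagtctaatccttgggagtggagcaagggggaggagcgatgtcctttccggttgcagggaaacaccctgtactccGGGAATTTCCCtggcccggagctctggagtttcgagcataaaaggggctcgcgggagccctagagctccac
Nfkbia, chr12:55492648-55492897, minus strand: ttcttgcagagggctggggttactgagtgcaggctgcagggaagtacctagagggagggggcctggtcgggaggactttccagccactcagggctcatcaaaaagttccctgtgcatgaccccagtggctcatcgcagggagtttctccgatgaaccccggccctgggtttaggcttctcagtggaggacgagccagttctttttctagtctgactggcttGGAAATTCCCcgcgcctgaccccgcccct
Zfp36, chr7:28379229-28379478, minus strand: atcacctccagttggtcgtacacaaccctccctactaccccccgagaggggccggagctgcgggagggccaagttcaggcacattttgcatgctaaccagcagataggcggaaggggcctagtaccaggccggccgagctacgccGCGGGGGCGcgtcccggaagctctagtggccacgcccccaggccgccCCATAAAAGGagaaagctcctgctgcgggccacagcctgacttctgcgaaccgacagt
Dusp2, chr2:127335909-127336158, plus strand: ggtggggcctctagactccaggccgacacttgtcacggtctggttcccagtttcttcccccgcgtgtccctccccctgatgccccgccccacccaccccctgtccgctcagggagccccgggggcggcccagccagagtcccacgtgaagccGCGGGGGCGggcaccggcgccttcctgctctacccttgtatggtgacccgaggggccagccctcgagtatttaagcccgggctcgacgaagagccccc
Socs3, chr11:117969367-117969616, minus strand: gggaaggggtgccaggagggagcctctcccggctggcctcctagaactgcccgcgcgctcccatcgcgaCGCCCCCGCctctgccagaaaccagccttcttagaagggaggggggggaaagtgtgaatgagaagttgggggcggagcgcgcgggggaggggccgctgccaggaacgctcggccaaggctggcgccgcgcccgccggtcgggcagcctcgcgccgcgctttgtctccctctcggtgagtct
Nr4a1, chr15:101266596-101266845, plus strand: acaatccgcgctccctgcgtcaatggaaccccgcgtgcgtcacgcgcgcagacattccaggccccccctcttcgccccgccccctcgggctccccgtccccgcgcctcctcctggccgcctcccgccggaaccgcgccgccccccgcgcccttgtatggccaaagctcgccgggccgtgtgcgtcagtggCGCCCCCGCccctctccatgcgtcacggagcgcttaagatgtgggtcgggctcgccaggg
Tnf, chr17:35202008-35202257, minus strand: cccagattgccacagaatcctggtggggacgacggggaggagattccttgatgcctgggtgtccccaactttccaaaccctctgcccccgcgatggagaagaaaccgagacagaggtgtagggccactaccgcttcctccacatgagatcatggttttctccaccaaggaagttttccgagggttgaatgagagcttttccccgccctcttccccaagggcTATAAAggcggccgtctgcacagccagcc
The capitals are matches to the κB consensus, the site of NF-κB, in Cxcl2, Cxcl1, and Nfkbia. In Cxcl2 and Cxcl1 both strands match and the matches overlap by all but 1 base. In Zfp36 the capitals mark a motif of the EGR factors (GCGGGGGCG) and, nearer the start site, a CArG box, to which serum response factor (SRF) binds with ternary complex factors such as ELK1. Dusp2, Socs3, and Nr4a1 have the EGR motif, and Tnf has a TATA box (TATAAA).

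Across the raised genes the κB consensus was found in 11 of 56 windows (19.6%), against 4.36% of the windows of all tested genes and 3.75% of all 27025 windows. Its holders were Cxcl2, Cxcl1, Nfkbia, Fos, Ier3, Tnfaip3, Fosb, Ccrl2, Irf1, Sdc4, and Cxcl3. The TATA box stood in 9 windows (16.1%, against 6.20% of tested and 12.97% of all windows), among them Tnf, Fos, Il1b, and Il1a. The EGR motif stood in 8 (14.3%, against 4.70% and 2.56%), the AP-1 motif (TGANTCA) in 6 (10.7%, against 4.35% and 6.87%), and the CRE (TGACGTCA), a site of CREB, in 4, which were Btg2, Dusp1, Ppp1r15a, and Plk2 (7.10%, against 2.83% and 1.62%). The CArG box was found in Zfp36 and Dusp5 (3.60%, against 1.06% and 1.40%). A match is a run of letters and not a measured binding site, and windows without one may hold sites elsewhere.

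The raised genes were also short. Their median genomic span in RefSeq was 4.84 kb, against 22.6 kb for all tested genes, and 37 of 74 (50.0%) spanned less than 5 kb, against 12.1% of all tested genes.

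**Figure D2:**
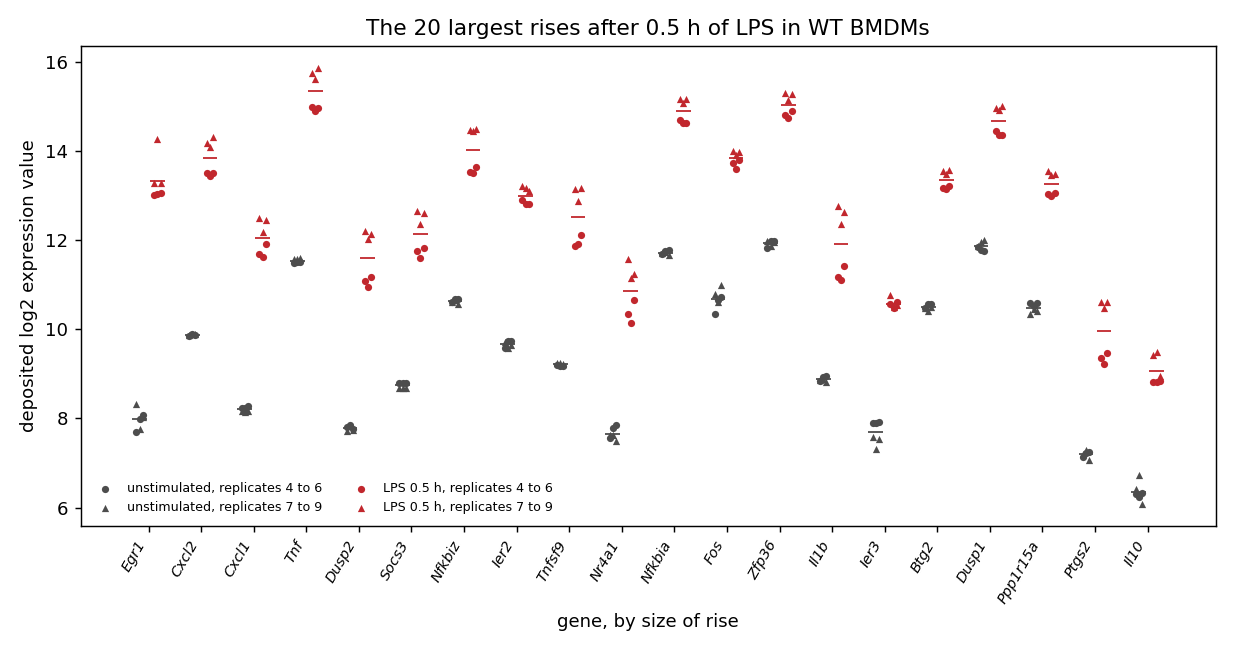
Deposited log2 values of the 20 genes with the largest rises, in each of the 6 unstimulated (gray) and 6 LPS libraries (red), with circles for replicates 4 to 6, triangles for replicates 7 to 9, and lines for the group means. The red and gray points do not overlap for any of the 20 genes, and most red triangles lie above the red circles.

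Immediate early transcription regulators made up the largest group. Of 36 tested members, 17 were called, all as raised, and 28 were higher and 1 was lower at the adjusted p. Of all tested genes, 0.623% were called, 7.82% were higher, and 3.81% were lower. The median log2 fold change of the list was 0.75, against -0.00 over all tested genes. Egr1, a zinc finger factor and the classic target of ERK and the ternary complex factors (chromosome 18 from 34861207 to 34864956), rose most of all genes. Its unstimulated values ran from 7.70 to 8.33 with a median of 8.02, and its LPS values from 13.02 to 14.27 with a median of 13.17. The log2 fold change was 5.34 ± 0.13, or 40.4-fold (adjusted p = 1.4e-37). It was 5.11 in replicates 4 to 6 and 5.57 in replicates 7 to 9. The groups were far apart, and replicate 8 alone made the highest value, the other 5 LPS libraries lying at or below 13.3.

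The relatives Egr2 and Egr3 rose as well. Egr3 went from 6.81 to 7.20 (median 6.96) without LPS to 8.95 to 10.03 (median 9.44) with it, a log2 fold change of 2.46 ± 0.13. Egr2 was more variable without LPS, from 9.55 to 10.59 (median 10.14), and lay between 11.98 and 13.17 (median 12.33) after it, a change of 2.37 ± 0.15. Nr4a1, an orphan nuclear receptor, ran from 7.50 to 7.86 (median 7.62) and then from 10.14 to 11.58 (median 10.91), a change of 3.19 ± 0.14, with 2.64 in replicates 4 to 6 and 3.74 in replicates 7 to 9. Its relatives Nr4a2 and Nr4a3 stood at log2 fold changes of 0.17 and 0.25, with adjusted p = 0.27 and 0.39.

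Of the genes for FOS and JUN proteins, which pair to form AP-1, Fos, Junb, Fosb, and Jun were called. Fos (chromosome 12 from 85473890 to 85477274) was at 10.34 to 10.98 (median 10.68) in unstimulated cells and at 13.59 to 13.99 (median 13.86) after LPS, a log2 fold change of 3.15 ± 0.09 (8.88-fold, adjusted p = 3.1e-34). Its response was nearly equal in the sets of replicates, at 3.14 and 3.16. Junb rose by 2.59 ± 0.08, Fosb by 2.00 ± 0.14 (1.48 and 2.52 in the sets of replicates), and Jun by 1.55 ± 0.09, all without overlap of the groups. The related Fosl2 and Jund rose by 0.46 and 0.23, under 2-fold, and Fosl1 stood at 0.17 (adjusted p = 0.57). The AP-1 partner Maff, a small Maf factor, rose by 2.04, with 1.39 in replicates 4 to 6 and 2.69 in replicates 7 to 9. Atf3, which encodes a further AP-1 partner, was already at 13.78 without LPS and rose by 0.48 (adjusted p = 1.5e-09), less than the 2-fold threshold.

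Of the other called members, Ier2, a short immediate early gene, lay at 9.58 to 9.75 (median 9.67) and then at 12.81 to 13.22 (median 13), with a log2 fold change of 3.33 ± 0.07 (10.1-fold). Ier3, which encodes a regulator of cell survival, rose by 2.88 ± 0.11, and Btg2, an antiproliferative gene, by 2.85 ± 0.06. Csrnp1 rose by 2.27 (1.78 and 2.76 in the sets of replicates), the histone H3K27 demethylase gene Kdm6b by 1.68 (1.02 and 2.35 in the sets of replicates), Cebpb by 1.15, Myc by 1.03, and Klf6 by 1.00. Cebpb, Klf6, and Myc missed the 2-fold threshold in replicates 4 to 6 alone, at 0.90, 0.79, and 0.93, and stood at 1.40, 1.22, and 1.13 in replicates 7 to 9. The related Ier5, Klf2, and Btg1 rose by 0.88, 0.62, and 0.58 and so passed the adjusted p alone. Ier5l went the other way and fell by 0.46 (adjusted p = 0.00048). Srf, the gene of the factor that binds CArG boxes, stood at a log2 fold change of 0.12 with adjusted p = 0.0559, and 0.0085 with a replicate block.

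Some genes of mRNA decay factors rose within the same 0.5 h. These proteins remove the short-lived mRNAs of cytokines. Of 8 tested members, 3 were called and 5 were higher at the adjusted p, against 0.623% and 7.82% of all tested genes. The list median was 0.44. Zfp36, which encodes the decay factor tristetraprolin (chromosome 7 from 28376784 to 28379228), went from 11.83 to 11.99 (median 11.97) to 14.74 to 15.29 (median 15.02), a log2 fold change of 3.09 ± 0.09 (8.54-fold). Its relatives Zfp36l1 and Zfp36l2 rose by 1.28 ± 0.06 and 0.43 ± 0.06. Zc3h12a, the gene of the endonuclease Regnase-1, rose by 1.37 ± 0.07 and its relative Zc3h12c by 0.45. Cnot1, the scaffold of the deadenylase complex, stood at 0.04 (adjusted p = 0.82).

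Among cytokine genes, Tnf, Tnfsf9, Il1b, Il10, Il1a, and Osm were called. Of 23 tested members, 6 were called and 14 were higher at the adjusted p, against 0.623% and 7.82% of all tested genes. The list median was 0.56. Tnf (chromosome 17 from 35199367 to 35202007), the main early inflammatory cytokine, lay at 11.49 to 11.59 (median 11.54) without LPS and at 14.90 to 15.87 (median 15.30) with it. Its log2 fold change was 3.81 ± 0.10 (14-fold, adjusted p = 1.1e-37), with 3.45 in replicates 4 to 6 and 4.16 in replicates 7 to 9. No LPS library came near the unstimulated ones, and the 3 lowest were replicates 4 to 6. Tnfsf9, the ligand of the costimulatory receptor 4-1BB, ran from 9.18 to 9.25 (median 9.22) and then from 11.87 to 13.16 (median 12.50), a change of 3.30 ± 0.13, with 2.78 and 3.83 in the sets of replicates.

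Both IL-1 genes rose more in replicates 7 to 9 than in replicates 4 to 6, a difference that was not tested. Il1b (chromosome 2 from 129364569 to 129371164) was at 8.82 to 8.95 (median 8.87) and rose to 11.11 to 12.76 (median 11.89), by 3.03 ± 0.16, which was 2.33 in replicates 4 to 6 and 3.73 in replicates 7 to 9. Il1a was at 6.27 to 6.37 (median 6.31) and rose to 7.35 to 9.19 (median 8.33), by 2.00 ± 0.18, or 1.19 and 2.81 in the sets of replicates. In both genes the groups did not overlap. Il1rn, which encodes the IL-1 receptor antagonist, had a log2 fold change of 0.00 ± 0.15.

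Il10, the main anti-inflammatory cytokine of macrophages, was among the early genes. Its unstimulated values ran from 6.08 to 6.72 (median 6.32) and its LPS values from 8.82 to 9.49 (median 8.90), a log2 fold change of 2.71 ± 0.12 (6.54-fold). The gp130 ligand gene Osm rose by 1.28 ± 0.08 and was, with Gm16712, an exception in responding slightly more in replicates 4 to 6 (1.34) than in replicates 7 to 9 (1.21). Lif and Csf2 rose by 0.98 and 0.91 from levels of 3.42 and 3.30, which was 0.58 and 0.26 in replicates 4 to 6 and 1.38 and 1.57 in replicates 7 to 9. Hbegf rose by 0.81, and Csf1 by 0.38. Il12b, Il6, and Ifnb1, which later carry the T cell-directing, acute phase, and antiviral arms of the response, stood at log2 fold changes of 0.32, 0.29, and 0.14, with adjusted p = 0.50, 0.41, and 0.58. Il6 newly passed the adjusted p in 3 of 16 alternative fits, among them the replicate block (adjusted p = 0.0474), and Il12b in 1. In replicates 7 to 9 alone Il6 and Il12b stood at 0.49 and 0.53. Tgfb1 stood at -0.00.

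Among the chemokine genes, the largest rises were those of Cxcl2 and Cxcl1, whose products attract neutrophils. Of 16 tested chemokines, 5 were called and 9 were higher at the adjusted p, against 0.623% and 7.82% of all tested genes. The list median was 0.79. Cxcl2 (chromosome 5 from 90903899 to 90905938) ran from 9.84 to 9.90 (median 9.88) and then from 13.44 to 14.31 (median 13.80), a log2 fold change of 3.96 ± 0.10 (15.6-fold, adjusted p = 3.6e-37). Cxcl1 ran from 8.14 to 8.29 (median 8.20) and then from 11.63 to 12.49 (median 12.05), a change of 3.85 ± 0.13. In replicates 4 to 6 and 7 to 9 these changes were 3.62 and 4.31 for Cxcl2 and 3.49 and 4.22 for Cxcl1. Neither gene's groups overlapped, and the promoters of both are shown above. Cxcl3 started at 4.37 and rose by 1.10 ± 0.15, or 0.76 and 1.43 in the sets of replicates, and since these genes are near copies of each other, the counting could have assigned some reads to the wrong member.

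The CC chemokine genes Ccl3 and Ccl4 rose by 1.61 ± 0.09 and 1.29 ± 0.08. The monocyte attractants Ccl2, Ccl7, and Ccl12 rose by 0.80, 0.88, and 0.97, and Cxcl10 by 0.78, so these passed the adjusted p without reaching 2-fold. In replicates 4 to 6 they rose by 0.60, 0.70, 0.74, and 0.52, and in replicates 7 to 9 by 0.99, 1.06, 1.2, and 1.03. Differences between these chemokine genes in the size of the rise were not tested. Ccl9, with a level of 14.96 in unstimulated cells, stood at 0.22 (adjusted p = 0.0663, and 0.0123 with a replicate block), and Ccl6 stood at -0.12 (adjusted p = 0.72, and 0.0452 with a replicate block).

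Among NF-κB subunits and feedback genes, the 4 called genes all encode inhibitors or nuclear cofactors of NF-κB rather than its DNA-binding subunits. Of 20 tested members, 4 were called and 11 were higher at the adjusted p, against 0.623% and 7.82% of all tested genes. The list median was 0.25. Nfkbia, which encodes IκBα, the inhibitor that is degraded and resynthesized in each round of NF-κB activation (chromosome 12 from 55489409 to 55492647), had the smallest adjusted p of all genes, 5.2e-43. It ran from 11.67 to 11.77 (median 11.72) and then from 14.62 to 15.17 (median 14.89), a log2 fold change of 3.17 ± 0.06 (9.01-fold). Nfkbiz, which encodes the nuclear cofactor IκBζ, ran from 10.57 to 10.68 (median 10.64) and then from 13.52 to 14.49 (median 14.04), a change of 3.38 ± 0.10.

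Tnfaip3, the gene of the ubiquitin-editing inhibitor A20, rose by 2.70 ± 0.12, and Nfkbid by 2.18 ± 0.12. The further inhibitor genes Nfkbib and Nfkbie rose by 0.50 and 0.45. Of the subunits, Rel rose by 0.47 and Rela by 0.18 (adjusted p = 0.025), and Rela no longer passed in 5 of 16 alternative fits. Nfkb2 and Nfkb1 stood at 0.15 and 0.07 (adjusted p = 0.0612 and 0.52), which with a replicate block became 0.0043 and 0.0352. Tnip3 stood at 0.16 (adjusted p = 0.42), with -0.06 in replicates 4 to 6 and 0.38 in replicates 7 to 9.

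MAPK feedback genes, most of which dampen ERK, JNK, or p38 signaling, included 3 of the 20 largest rises, Dusp2, Dusp1, and Ppp1r15a. Of 23 tested, 8 were called and 13 were higher at the adjusted p, against 0.623% and 7.82% of all tested genes. The list median was 0.69. Dusp2, a nuclear MAPK phosphatase, ran from 7.73 to 7.85 (median 7.79) and then from 10.95 to 12.20 (median 11.60), a log2 fold change of 3.80 ± 0.13 (14-fold), with 3.27 in replicates 4 to 6 and 4.34 in replicates 7 to 9. Dusp1, which encodes the phosphatase MKP-1 that inactivates p38 and JNK (chromosome 17 from 26505591 to 26508472), ran from 11.76 to 12.01 (median 11.86) and then from 14.35 to 15.01 (median 14.68), a change of 2.81 ± 0.08. Dusp5 and Dusp4, which act on ERK, rose by 1.89 ± 0.17 and 1.12 ± 0.08, and Dusp8 by 0.94. In the sets of replicates Dusp4 rose by 0.95 and 1.28.

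Ppp1r15a, which encodes the phosphatase subunit GADD34 that acts on the translation factor eIF2α rather than on MAPKs, rose by 2.78 ± 0.08. Errfi1, the inhibitor of the epidermal growth factor receptor, rose by 1.85 ± 0.15 (1.22 and 2.47 in the sets of replicates), Gadd45b by 1.66 ± 0.07, and Spry1, at a level of only 4.22 in unstimulated cells, by 1.00 ± 0.13 (0.70 and 1.31). Trib1, Rgs1, and Spry2 rose by 0.96, 0.83, and 0.69. Spred1 stood at 0.09 (adjusted p = 0.47, and 0.0227 with a replicate block). Socs3, the inhibitor of JAK-STAT signaling, belonged to no list and rose more than most: it ran from 8.68 to 8.81 (median 8.74) and then from 11.60 to 12.65 (median 12.09), a log2 fold change of 3.39 ± 0.11, with 2.93 and 3.85 in the sets of replicates.

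Most components of the TLR4 pathway itself were close to their unstimulated levels, but a larger share was higher than over all tested genes. All 42 were tested, 1 was called, 8 were higher and 1 was lower at the adjusted p. Of all tested genes, 0.623% were called, 7.82% were higher, and 3.81% were lower. The list median was 0.04. The called gene was Map3k8, the gene of TPL-2 (chromosome 18 from 4331325 to 4352953), which ran from 8.83 to 9.02 (median 8.95) and then from 9.84 to 10.10 (median 9.99), a log2 fold change of 1.03 ± 0.05 (2.05-fold). It was 0.91 in replicates 4 to 6, under the threshold there, and 1.16 in replicates 7 to 9. Cd14 rose by 0.70 ± 0.07 and Mapk8, the gene of JNK1, by 0.27, whereas Tab1 fell by 0.17 (adjusted p = 0.019) and no longer passed in 5 of 16 alternative fits. Tlr4 stood at 0.07 (adjusted p = 0.55, and 0.0318 with a replicate block). Mapkapk2, a kinase downstream of p38, stood at -0.02. With the replicate block 14 of the 42 were higher and 4 were lower, where 16.3% of all tested genes were higher and 14.2% lower.

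Among interferon-stimulated genes, which respond to the IFN-β that macrophages release later, all 32 were tested, and only Irf1 was called. This factor gene is induced by both interferon and NF-κB, and it rose by 1.78 ± 0.09 (1.39 and 2.16 in the sets of replicates), from 10.89 to 11.14 (median 11.04) to 12.42 to 13.22 (median 12.76). No other member passed the adjusted p, where 7.82% of all tested genes were higher and 3.81% lower. The list median was -0.03. Irf8 stood at 0.05. Stat2 stood at -0.29 (adjusted p = 0.23, and 0.0034 with a replicate block), and with the block 4 of the 32 were lower, where 14.2% of all tested genes were.

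Of 9 tested prostaglandin, nitric oxide, and arginine genes, 1 was called and 3 were higher at the adjusted p. Of all tested genes, 0.623% were called and 7.82% were higher. The list median was 0.04. Ptgs2, which encodes the inducible cyclooxygenase COX-2, ran from 7.07 to 7.30 (median 7.22) and then from 9.23 to 10.62 (median 9.97), a log2 fold change of 2.76 ± 0.19, with 2.14 and 3.38 in the sets of replicates. The prostaglandin E2 receptor gene Ptger4 rose by 0.84. Odc1, the gene of ornithine decarboxylase, rose by 0.28 and no longer passed the adjusted p in 5 of 16 alternative fits.

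Lists of genes of resting or structural function had medians near 0. Of all tested genes, 7.82% were higher and 3.81% lower at the adjusted p, and 16.3% and 14.2% with the replicate block. None of 17 tested actin cytoskeleton targets of SRF was called and 1, Actg1, was higher at the adjusted p, by 0.10 (adjusted p = 0.042), and no longer passed in 10 of 16 alternative fits, while Actb stood at 0.06. None of 25 surface receptors of resting macrophages passed the adjusted p, with a list median of -0.02, and with the replicate block 2 were higher and 3 lower. Trem2 stood at -0.09 (adjusted p = 0.16, and 0.0234 with a replicate block) and Mrc1, the mannose receptor gene, at -0.01. Of 10 reference genes, only Tbp was higher, by 0.20 (adjusted p = 2.4e-05), whereas Eef1a1 and B2m stood at -0.04, and with the replicate block 3 of the 10 were lower.

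**Figure D3:**
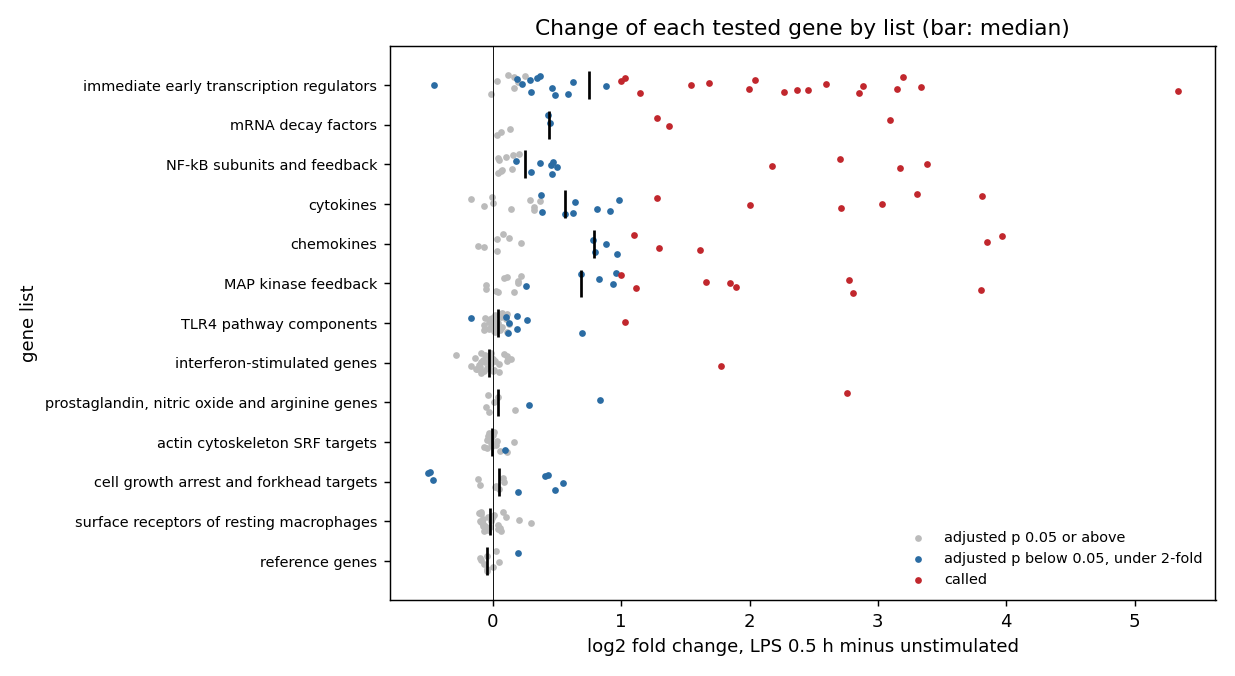
Log2 fold change (x axis) of each tested gene of the 13 lists (y axis), in red where called, in blue where only the adjusted p was below 0.05, and in gray otherwise, with a black bar at the list median. The medians of chemokines (0.79), immediate early regulators (0.75), and MAPK feedback genes (0.69) are the highest, and those of the lower lists lie near 0.

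Other raised genes, like Socs3, belonged to no list and were named after their values were seen. They included genes of stress and growth control, namely Gdf15 (2.45), Phlda1 (2.44), the kinase genes Pim1 (1.87), Plk2 (1.25), and Sgk1 (1.12), and the transcription regulators Id3 (1.69), Cited2 (1.39), and Prdm1 (1.00), where each value is the log2 fold change. Receptors and surface genes were Ccrl2 (1.99), Gpr84 (1.90), Cd69 (1.65), Sele (1.40), and Sdc4 (1.27). F3, which encodes tissue factor, the trigger of coagulation, rose by 1.34 (0.83 and 1.85 in the sets of replicates). Pde4b, a cAMP phosphodiesterase gene, rose by 1.21 and Bmp2 by 1.04.

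In several of these genes the response was unequal between the sets of replicates. Sele rose by 0.39 in replicates 4 to 6 and by 2.41 in replicates 7 to 9, and Pde4b by 0.50 and 1.92. In the same order the values were 1.15 and 2.23 for Id3, 1.37 and 2.44 for Gpr84, 0.89 and 1.66 for Sdc4, 0.71 and 1.36 for Bmp2, and 0.75 and 1.25 for Prdm1, so that Sdc4, Bmp2, and Prdm1, like Sele, Pde4b, and F3, were not called in replicates 4 to 6 alone. Tagap, Gem, Marcksl1, and Sowahc rose by 1.78, 1.72, 1.63, and 1.58 and Tmem200b by 1.18. Their values in the sets of replicates were 1.42 and 2.14 for Tagap, 1.12 and 2.33 for Gem, 1.29 and 1.97 for Marcksl1, and 0.70 and 1.65 for Tmem200b. The host gene of miR-155, Mir155hg, rose by 1.56 ± 0.25 from a mean level of 5.09 (1.10 and 2.02 in the sets of replicates), and the long noncoding Gm16712 by 1.28 ± 0.28. The heat shock genes Hspa1a and Hspa1b rose by 1.59 (1.09 and 2.09) and 1.41 (0.89 and 1.94) and the MHC pseudogene H2-Q5 by 1.05 (0.89 and 1.2), and because each has near-identical copies, the share of reads that belongs to each is uncertain.

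**Figure D4:**
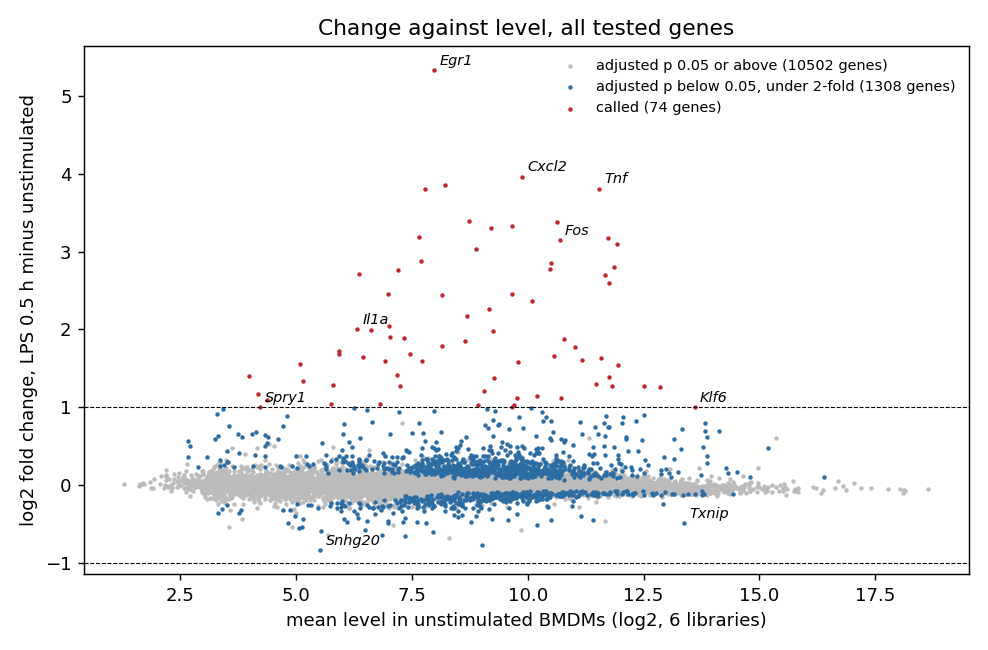
Log2 fold change at 0.5 h of LPS (y axis) against the mean level in unstimulated BMDMs (x axis, log2) for all 11884 tested genes, in red for the 74 called genes and in blue for genes with an adjusted p below 0.05 under 2-fold, with dashed lines at 1 and -1. Red points span unstimulated means from 3.98 (Sele) to 13.60 (Klf6), and no gene that passed the adjusted p lies below -0.84 (Snhg20).

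Smaller changes ran in both directions. Without the 2-fold condition, 929 genes were higher and 453 lower at the adjusted p, with median log2 fold changes of 0.23 and -0.16. This split of directions depended on the fit: 1936 were higher and 1688 lower with a replicate block, and 848 and 1240 after quantile normalization. The genes that fell most without overlap were Snhg20, a small nucleolar RNA host gene (-0.84 ± 0.15), Hmga2-ps1, a pseudogene (-0.77 ± 0.10), Zkscan14, a zinc finger gene (-0.64 ± 0.11), and Rhov (-0.61 ± 0.11). In replicates 4 to 6 these stood at -0.65, -0.60, -0.34, and -0.40, and in replicates 7 to 9 at -1.03, -0.94, -0.95, and -0.82. Ccdc166, Nhlrc1, Magef1, Tigd5, Tsc22d3, and Dnajc28 followed at -0.59, -0.58, -0.56, -0.54, -0.51, and -0.49.

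Snhg20 ran from 5.24 to 5.80 (median 5.49) without LPS and from 4.17 to 5.16 (median 4.65) with it, and in replicates 7 to 9 alone it fell by 1.03, past the 2-fold threshold. Cyb561d1 fell by 0.47. Of 15 tested genes of the growth arrest and forkhead list, 5 were higher and 3 lower, against 7.82% and 3.81% of all tested genes. The list median was 0.05. Its lower members were Tsc22d3, which encodes the glucocorticoid-induced protein GILZ, Txnip, an inhibitor of glucose uptake (-0.49 ± 0.09, adjusted p = 0.00013), and Pik3ip1, an inhibitor of PI3K (-0.47). Its higher members included Irs2, Ccng2, Tob2, and Tob1, at 0.55, 0.49, 0.43, and 0.41. With the replicate block, 5 members were higher and 5 lower, where 16.3% and 14.2% of all tested genes were. The arrestin-like Arrdc3 fell by 0.45 (adjusted p = 0.0095), by 0.15 in replicates 4 to 6 and 0.75 in replicates 7 to 9. It no longer passed in 5 of 16 alternative fits. Angptl4, whose groups overlapped, fell by 0.65 and no longer passed in 2 of them.

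Several of the changes under 2-fold, too, were over 1.5 times as large in replicates 7 to 9. Rel rose by 0.23 and 0.71 in replicates 4 to 6 and 7 to 9, Nfkbib by 0.26 and 0.75, and Nfkbie by 0.27 and 0.63. In the same order, Atf3 rose by 0.30 and 0.67, Fosl2 by 0.24 and 0.68, Klf2 by 0.44 and 0.80, and Csf1 by 0.19 and 0.58. Hbegf rose by 0.59 and 1.02, Dusp8 by 0.68 and 1.2, and Irs2 by 0.43 and 0.67. Among the lowered genes, Txnip stood at -0.29 and -0.69, Tigd5 at -0.35 and -0.73, Nhlrc1 at -0.45 and -0.72, Ier5l at -0.28 and -0.64, Cyb561d1 at -0.34 and -0.61, and Pik3ip1 at -0.35 and -0.59.

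The lowered genes were short like the raised ones. Of the 452 with a RefSeq position, 37.8% spanned less than 5 kb, against 12.1% of all tested genes and 10.6% of the 927 higher genes with a position, and their median span was 6.88 kb. Symbols that begin with Zfp, Zkscan, Zscan, or Zik, mostly zinc finger factors, made up 25 of the 453 (5.52%), against 2.81% of all tested genes. Beside this, the median unstimulated level was 9.18 in the lowered genes and 9.06 in all tested genes.

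The level of the 74 genes at later times placed the 0.5 h libraries on the way up or at the top. The mean level was highest at 0.5 h for 12 genes, at 1 h for 43, and at 2 h for 19, where the 2 h group held replicates 4 to 7 only. The 12 genes were Egr1, Ier2, Nr4a1, Fos, Zfp36, Ier3, Btg2, Dusp1, Fosb, Jun, Plk2, and Sgk1. Egr1 had means of 7.99, 13.32, 11.40, and 9.02 in unstimulated cells and at 0.5, 1, and 2 h, and Fos of 10.69, 13.84, 11.54, and 9.13. Fos was thus lower at 2 h than before LPS, as were Jun, Btg2, Nr4a1, Zfp36l1, Plk2, Gdf15, Egr2, Bmp2, and Myc.

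Among genes that were highest later, some were already close to that level at 0.5 h. Ppp1r15a had means of 13.27 at 0.5 h and 13.29 at 1 h, and Egr2 of 12.46 and 12.52. Others were still well below it. Il1a had means of 6.31, 8.31, 12.39, and 11.69, Mir155hg of 5.09, 6.65, 10.02, and 10.12, and Ptgs2 of 7.20, 9.96, 12.49, and 12.53. Socs3 had 8.74, 12.13, 13.87, and 14.25. Il12b, not called at 0.5 h, had 5.15, 5.47, 9.90, and 13.03. The comparisons at the 3 times share the unstimulated libraries, so these are values side by side with no test.

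**Figure D5:**
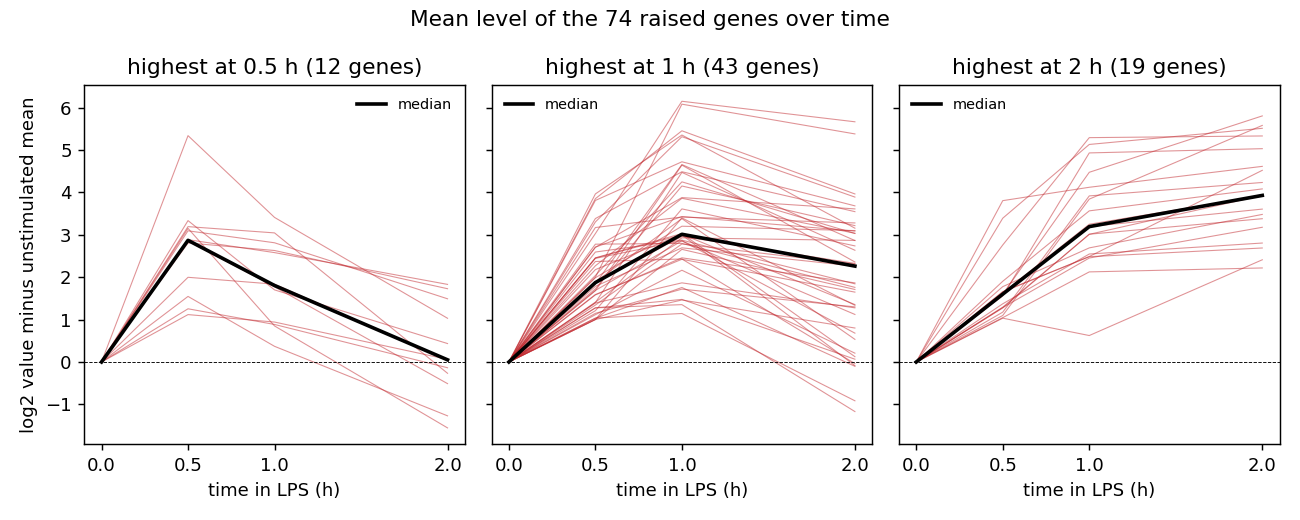
Mean log2 level of each of the 74 raised genes minus its unstimulated mean (y axis) at 0, 0.5, 1, and 2 h of LPS (x axis), split by the time of the highest mean, with the median in black. Of the 12 genes that were highest at 0.5 h, Fos, Jun, Nr4a1, Btg2, and Plk2 end below the unstimulated level at 2 h.

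Map3k8 D270A BMDMs, which have unstimulated libraries of their own, were compared to ask which part of this response differs without TPL-2 kinase activity. In these cells 53 genes were called at 0.5 h (0.446% of those tested), all of them among the 74 (71.6% of the WT genes). Without the 2-fold condition, 73 of the 74 rose in these cells at the adjusted p, where 3.91% of all tested genes did. The difference of the responses passed the adjusted p for 13 genes (0.109%), each with a smaller response in Map3k8 D270A cells and each among the 74. Egr1 rose by 0.76 in these cells, a difference of -4.58 ± 0.19 from WT (adjusted p = 5.0e-26). Egr3 rose by 0.47 and Ier2 by 1.72, differences of -1.98 and -1.62. Egr3 started from a higher mean level without LPS in Map3k8 D270A cells (7.82 ± 0.20, SD, n = 6) than in WT cells (7.00 ± 0.14), and its means at 0.5 h were 8.29 and 9.45. Fosb, Nr4a1, Egr2, and Fos had differences of -1.47, -1.31, -1.17, and -1.14, and Btg2, Maff, Kdm6b, Ier3, Junb, and Ppp1r15a of -1.06, -1.01, -0.90, -0.68, -0.68, and -0.61.

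No cytokine or chemokine gene passed this test in the fit of all replicates. Not passing does not show an equal response, and 72 of the 74 genes had a smaller response in Map3k8 D270A cells, passing or not. Among those called in WT, the difference ran from -0.52 for Il1a to -0.02 for Cxcl3. It was -0.49 for Il1b, -0.46 for Ccl3, -0.42 for Tnfsf9, and -0.41 for Ccl4, and -0.24 for Tnf, -0.21 for Cxcl2, and -0.07 for Cxcl1, with adjusted p = 0.45 for Ccl3 and Ccl4 and 1.0 for the others. For Nfkbia it was -0.20 and for Socs3 0.02, each with adjusted p = 1.0. For Nfkbiz it was -0.55 (adjusted p = 0.14) and for Zfp36 -0.53 (adjusted p = 0.12). The number of genes with a difference rested on the replicates. It was 6 with WT replicates 4 to 6 set against Map3k8 D270A replicates 1 to 3. With WT replicates 7 to 9 against Map3k8 D270A replicates 4 to 6 it was 52. The sets were matched by the order of their numbers alone, and the labels do not say that they correspond. Of the 13, Egr1, Egr3, Ier2, Btg2, and Maff passed in both fits, and Egr2 in neither. Of the 52, 50 had a smaller response in Map3k8 D270A cells and the others a larger one. The median response of the 74 genes ran from 1.19 to 1.65 in the 6 Map3k8 D270A replicates, where the WT replicates ran from 1.32 to 2.32, and the part of the replicate sets in the difference was not tested.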

How the data were processed

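RNA-seq libraries of BMDMs were processed by the authors, whose submission notes name STAR 2.5.1b, RSEM 1.2.29, DESeq2 1.10.1, and mm10 (the methods name other versions of STAR and RSEM, counting strand-specific reads on RefSeq genes). The authors deposited log-scale expression values, here read as log2, in 1 table for all 119 libraries. Neither the transformation nor the log base is stated in the sources used here, and log2 was inferred from the study's figures of log2-transformed counts. No counts are in that table, so the depth of the libraries is unknown and no counting interval was given. Counting noise was reckoned as if 2 to the power of the deposited value were the read count, which the unknown depth leaves unchecked. Within-group SDs of low genes lay below that noise (median 0.159 against 0.429 at levels of 3 to 4, 0.175 against 0.303 at 4 to 5, and 0.143 against 0.152 at 6 to 7), so the values of low genes may be shrunken.

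Values were fitted with limma 3.58.1 (R 4.3.3, moderated test, Benjamini-Hochberg adjustment) over 62 libraries of BMDMs, namely those of WT cells without inhibitor, Map3k8 D270A cells, and Elk1-/-Elk4-/- cells, which share 1 estimate of the spread. Of 18098 genes, 11884 had a linear value of at least 10 in at least 4 libraries and were tested. The difference between genotypes was an interaction term. The script was tested on simulated data. Replicate numbers were shared between the groups, and same-numbered libraries deviated together (correlations from 0.453 to 0.793). Of the 6 unstimulated libraries, 4 correlated best with the LPS library of their own number. The labels do not say that equal numbers mark pairs. A fit with the replicate number as a block was therefore made only as an alternative. Others were median centring, quantile normalization, no or another filter on low values, limma with a mean-variance trend, the 12 WT libraries or all libraries in the fit, other thresholds, each replicate left out, and each set of 3 replicates alone.

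Named genes were the 20 largest rises, every called list member, and 2 members per list of the highest level among those not called. Other genes were added after their values were seen, among them the 10 largest falls of genes whose groups did not overlap. The comparison, the gene lists, and the markers were chosen with earlier results of these data known. Promoter sequences and gene spans came from RefSeq (GRCm38.p6), to which 11387 genes were matched by symbol, 455 by synonym, and 42 not at all. Libraries of inhibitor-treated and Nfkb1 mutant cells entered only the alternative fit over all libraries, and a few genes are not reported here.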

Additional observations from a re-analysis of the deposited data

Results flagged for a closer look

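In 12 of 300 groups of 6 libraries (150 named genes in each group), 1 library lay far from the other 5 by Dixon's test, which by chance marks about 1 in 20 groups. Egr1 was at 14.3 in LPS replicate 8, against 13 to 13.3 in the others, and its rise was as large as 5.11 in replicates 4 to 6. Replicate 8 also had Nhlrc1 at 5.63 with LPS, and Sowahc at 9.64 without it. In unstimulated replicate 9, Cebpb was at 10.4, Actg1 at 16.5, Plk2 at 13, Ccng2 at 9.58, Fosl2 at 10.4, Gm16712 at 5.56, and Il12b at 5.04. Spry2 was at 9.10 in LPS replicate 9, and Nfkb1 at 11.3 in unstimulated replicate 7.

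In 13 genes the response in Map3k8 D270A BMDMs differed from WT by the interaction term of limma. The differences were -4.58 for Egr1, -1.98 for Egr3, -1.62 for Ier2, -1.47 for Fosb, -1.31 for Nr4a1, -1.17 for Egr2, -1.14 for Fos, -1.06 for Btg2, -1.01 for Maff, -0.904 for Kdm6b, -0.680 for Ier3, -0.678 for Junb, and -0.606 for Ppp1r15a. Of these, Egr1, Egr3, Ier2, Btg2, and Maff passed with either set of 3 replicates of both genotypes. The labels do not say that these sets correspond between genotypes.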

How the results depend on the processing

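The number of raised genes was 74 in the fit reported and from 68 (without replicate 9) to 81 (without replicate 4) with a replicate left out, and the fit with the replicate block called the same 74 genes. Genes at the threshold lost their call when a replicate was left out, namely Bmp2, Klf6, Prdm1, and Spry1 without replicate 7 or 8, these with H2-Q5 and Map3k8 without replicate 9, and Bmp2 without replicate 4. Median centring lost Klf6, Prdm1, and Spry1, and quantile normalization lost Spry1. With a threshold of 1.5-fold 149 genes were called (143 raised and 6 lowered, and 101 in Map3k8 D270A cells), and with a threshold of 0.693, which is 2-fold if the values are natural logarithms, 117 (115 raised and 2 lowered, and 82).

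Small changes depended more on the processing. Without a fold threshold, 1382 genes passed, against 3624 with the replicate block (1936 higher and 1688 lower), 834 in replicates 4 to 6 (595 and 239), 690 in replicates 7 to 9 (535 and 155, with 1 gene lowered past 2-fold), and 2088 after quantile normalization (1240 lower). Median centring gave 779 lower, and leaving out replicates gave 273 to 372 lower. The counts by direction were added after seeing the data. The interaction count was 13, against 21 with the block, 21 with all libraries in the fit, 6 and 52 with the first and second set of replicates, and 11 to 21 with a replicate left out (21 without WT replicate 5). Why was not tested.

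Of 2393 log2 fold changes of 150 genes over 16 alternatives, 2311 kept their direction and their side of the adjusted p of 0.05, whatever their size, 45 no longer passed it, 22 newly passed it, and 15 changed sign, all in genes not called. Those that no longer passed were Actg1 in 10 alternatives, Arrdc3, Odc1, Rela, and Tab1 in 5 each, Angptl4 and Hbegf in 2 each, and Bmp2, Btg1, Csf2, Ier5l, Jund, Mapk8, Nfkbie, Rel, Tigd5, Txnip, and Zfp36l2 in 1 each, with 1 set of replicates alone. The changes of sign were in Tnip3 (-0.0592), Tgfb1 (0.0161), Il1rn (-0.0665), and Mrc1 (0.0263) in replicates 4 to 6, Mapkapk2 (0.01004) in replicates 7 to 9, Il1rn (-0.0173) after median centring, and Il1rn (-0.0313) and Irf8 (-0.00582) after quantile normalization. With a replicate left out, Mrc1 ran from -0.0321 to 0.0175, Tgfb1 from -0.0112 to 0.0233, and Il1rn from -0.0261 to 0.0249. The genes that newly passed were Nfkb2 in 4 alternatives, Ccl9 and Il6 in 3 each, and Srf, Stat2, and Trem2 in 2 each. Ccl6, Il12b, Nfkb1, Sesn1, Spred1, and Tlr4 did so in 1 each. Changes in low genes are limited by the unknown depth and the possible shrinkage.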
